A study of Homo sapiens with 4 samples.

Results

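ACTB, GAPDH, HPRT1, TBP, IPO8, POLR2A, PPIA, YWHAZ, GUSB and TFRC are genes whose messenger RNA is commonly used as the internal standard for quantitative PCR, and their levels were examined with and without a microRNA mimic in 2 pancreatic cancer lines. They were chosen by symbol, and all 10 were found among the 26255 gene symbols of the data. The groups were PSN-1 cells given a mimic of miR-4800-3p, a microRNA, PSN-1 cells with a scrambled control oligonucleotide, MIA PaCa-2 cells with the mimic and MIA PaCa-2 cells with the scramble. Each group had 1 library, so within a line there was no replicate and no test, and every group carried a transfected oligonucleotide. The series asks how raising this microRNA alters gene expression. PSN-1 and MIA PaCa-2 are established human lines from pancreatic tumours, and the labels call both epithelial.

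A reference gene serves to cancel differences in the amount of RNA between samples: the level of a gene of interest is divided by it, so any change of the reference appears, with its sign turned round, in every gene measured against it. The genes in use come from unrelated cell functions. ACTB encodes beta-actin of the cytoskeleton. GAPDH is a glycolytic enzyme, HPRT1 an enzyme of purine salvage and GUSB the lysosomal enzyme beta-glucuronidase. TBP is the TATA-binding protein that helps place RNA polymerase II at promoters, and POLR2A is the largest subunit of that polymerase. IPO8 is an importin, a carrier of proteins into the nucleus whose known cargoes include Argonaute proteins, which hold microRNAs, PPIA is the prolyl isomerase cyclophilin A, YWHAZ is a 14-3-3 adaptor protein, and TFRC is the transferrin receptor that takes up iron.

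The sequence of the transfected microRNA and the closest matches to its seed in the reference genes are shown because a gene that a microRNA can pair with is a poor standard for an experiment with that microRNA. The mature sequence is given by RefSeq (GRCh38.p14) on chr4:2250091-2250109, minus strand, with bases 2 to 8, the seed, in capitals. The windows are from GENCODE 29 transcripts (GRCh38), with the 6 letters that pair with bases 2 to 7 in capitals.
miR-4800-3p: cAUCCGUCcgucuguccac
IPO8 coding sequence: gaatatctgtctACGGATcattgatcttgt
GAPDH coding sequence: aggtcggagtcaACGGATttggtcgtattg

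The search covered 123 annotated transcripts of the 10 genes, sense strand only. GACGGAT, the match to bases 2 to 8, was in 0 of them. ACGGATA, the match to bases 2 to 7 followed by A, was in 1, a retained-intron transcript of PPIA. The 6-mer ACGGAT, which lies inside both 7-mers, was in 2 of the 10 reference transcripts, in the coding sequence of the IPO8 transcript (ENST00000256079.8, bases 2250 to 2255) and of the GAPDH transcript (ENST00000229239.9, bases 692 to 697). It was in no 3' UTR of those 10, of which the POLR2A one is truncated in the annotation. Among the other transcripts it was also in a short TFRC transcript of 354 bases. Among 11187 expressed genes, 12.3% had ACGGAT in the coding sequence and 2.15% had a 7-mer in the 3' UTR. Of the 2 genes with the 6-mer in their reference transcript, IPO8 was lower with the mimic in both lines and GAPDH was within 10% of its scramble level in both. A letter match is not evidence of binding.

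Levels are given in FPKM, by definition fragments scaled to transcript length and to the library's mapped total, a unit that allows comparison between genes of different length. Whether the deposited values were scaled further is not known. By mean over the 4 libraries the order was GAPDH, ACTB, PPIA, YWHAZ, TFRC, HPRT1, POLR2A, GUSB, IPO8 and TBP, with means from 3621 FPKM for GAPDH to 14.5 FPKM for TBP. GAPDH and ACTB stood far above the others. POLR2A, GUSB, IPO8 and TBP lay in a low band whose libraries overlapped, and TFRC and HPRT1 overlapped as well. Together the 10 genes made up 0.998% and 1.06% of the summed FPKM in PSN-1 with mimic and with scramble, against 1.80% and 2.04% in MIA PaCa-2, and most of that was ACTB and GAPDH. In bulk RNA, a difference in RNA per cell and a difference in the mix of cells cannot be told apart.

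**Figure D1:**
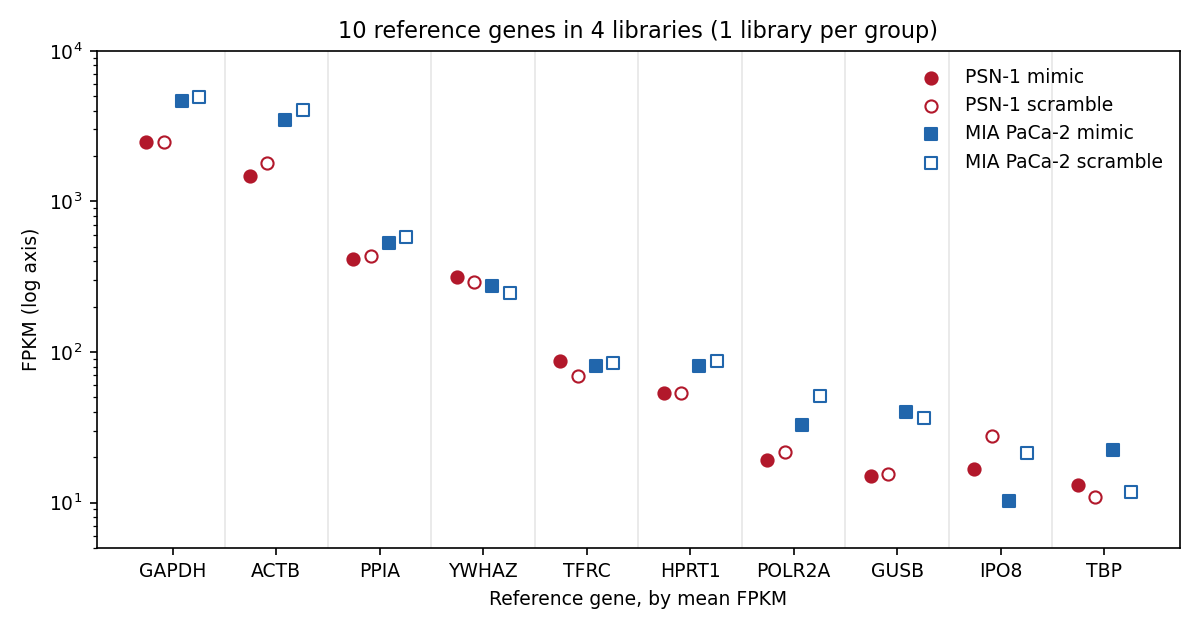
FPKM on a log axis for each of the 10 reference genes in the 4 libraries, ordered by mean; circles are PSN-1, squares MIA PaCa-2, filled symbols mimic and open symbols scramble, with 1 library per symbol. GAPDH and ACTB are at the top, with PSN-1 below MIA PaCa-2, while filled and open symbols stand apart most for IPO8, TBP and POLR2A.

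Among the facts of the whole data set that bear on these values, summed FPKM ran from 488575 to 510908 per library. By the smallest values listed, each FPKM corresponded to about 12.6 to 15.9 fragments per kb of transcript. That puts TBP, the lowest of the 10, at an estimated 234 to 538 fragments per library and GAPDH at 52440 or more. Counting errors below come from these estimates, and cover counting only, not variation between cultures. MIR4800 was listed at 0 in all 4 libraries, which select polyadenylated RNA, so the data do not check the transfection. KRT8 and KRT18, keratins of simple epithelia, were between 495 and 923 FPKM in every library, while EPCAM, an epithelial surface protein, was at 28.4 and 24.1 FPKM in PSN-1 with mimic and with scramble and at 0.139 and 0.104 FPKM in MIA PaCa-2, and CDH1, the adhesion protein E-cadherin, did not pass 1.51 FPKM. Of 6 leukocyte markers, CD3E and TYROBP were at 0 in all libraries, and the list summed to 5.58 and 8.43 FPKM in PSN-1 and to 1.27 and 1.12 FPKM in MIA PaCa-2. Most of the PSN-1 sums came from CD14, at 2.70 and 4.95 FPKM, and LYZ, at 2.38 and 3.01 FPKM. The 5 endothelial markers summed to 8.06 and 7.16 FPKM in PSN-1 and to 0 and 0.0273 FPKM in MIA PaCa-2, and the 6 fibroblast markers to 80.4 and 99.0 FPKM in PSN-1 and to 67.0 and 84.7 FPKM in MIA PaCa-2. The fibroblast sums came from different genes: COL1A2, a collagen gene, was at 0.012 and 0 FPKM in PSN-1 and at 59.9 and 76.8 FPKM in MIA PaCa-2, while COL1A1, COL3A1, LUM and PDGFRB were higher in PSN-1.

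With the mimic, IPO8 was lower in both lines, TBP was higher and POLR2A lower mainly in MIA PaCa-2, and GAPDH, HPRT1, PPIA and GUSB stayed within 10% of their scramble level in both lines, except that PPIA passed 10% in MIA PaCa-2 when values were scaled to TPM. A change is the log2(FPKM + 1) value with mimic minus that with scramble, over genes averaging 1 FPKM or more in the pair of libraries, and a gene was counted past 1.5-fold or 2-fold on that scale. Past 1.5-fold there was 1 of the 10 in PSN-1, against 7.04% of all 12233 genes there (3.17% higher and 3.87% lower), and 3 of the 10 in MIA PaCa-2, against 9.49% of 11484 genes (5.43% higher and 4.06% lower). Past 2-fold there was 0 of the 10 in each line, where the shares of all genes were 1.63% in PSN-1 (0.85% higher and 0.777% lower) and 2.12% in MIA PaCa-2 (1.31% higher and 0.81% lower). The median change of the 10 was -0.021 in PSN-1 and -0.091 in MIA PaCa-2, beside -0.016 and 0.014 for all genes. With 1 library a group these counts describe the pairs of libraries and are not tests.

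**Figure D2:**
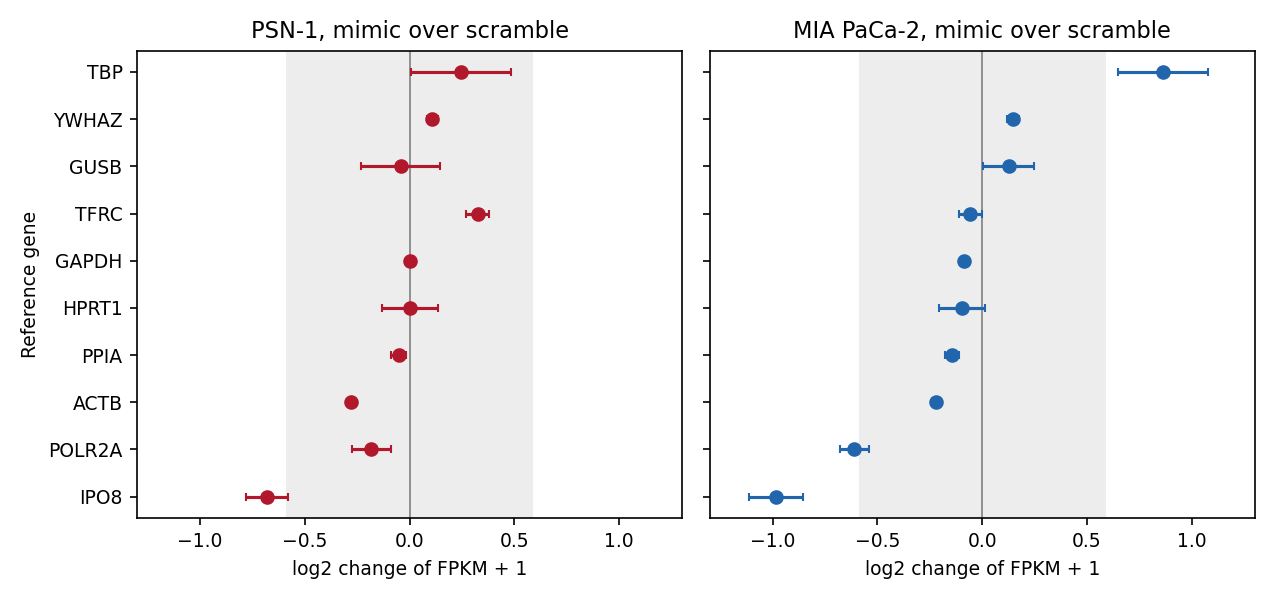
The log2 change of FPKM + 1, mimic over scramble, for each reference gene in PSN-1 (left) and MIA PaCa-2 (right), ordered by the MIA PaCa-2 change; bars are 95% counting intervals and the grey band is 1.5-fold either way. IPO8 lies left of the band in both lines, and TBP and POLR2A lie outside it in MIA PaCa-2 alone.

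IPO8 (chr12:30628988-30695986, minus strand, GRCh38) was at 16.8 FPKM with mimic and 27.5 FPKM with scramble in PSN-1. In MIA PaCa-2 it was at 10.3 FPKM with mimic and 21.3 FPKM with scramble. Both mimic libraries were below both scramble libraries. The log2 changes were -0.68 (counting SE 0.052) in PSN-1 and -0.98 (counting SE 0.065) in MIA PaCa-2. In plain FPKM the mimic level was 0.610 times the scramble level in PSN-1 and 0.483 times in MIA PaCa-2, so without the pseudocount the MIA PaCa-2 change passes 2-fold. These sizes exceeded those of 95.4% and 97.8% of all genes in the same pairs of libraries.

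Fitted over all 4 libraries by limma, with the line as a block, IPO8 had a mean log2 change of -0.83 (95% interval -1.21 to -0.45) and was not called (Benjamini-Hochberg adjusted p = 0.323). That fit has 1 residual degree of freedom and called 7 of 12423 genes (0.0563%, with 0.0483% higher and 0.00805% lower). It called 0 of the 10 reference genes, and 3 of them, IPO8, ACTB and TBP, had an unadjusted p under 0.05 in limma, as did 1048 of all 12423 genes (8.44%). Its errors combine how far the 2 lines disagree with a trend of the variance over all genes.

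Of the transcription genes, TBP (chr6:170554302-170572870, plus strand, GRCh38) was at 13.1 FPKM with mimic and 10.9 FPKM with scramble in PSN-1, and at 22.2 FPKM with mimic and 11.8 FPKM with scramble in MIA PaCa-2. The MIA PaCa-2 mimic library thus stood apart from the other 3. The log2 changes were 0.25 (counting SE 0.12) in PSN-1 and 0.86 (counting SE 0.11) in MIA PaCa-2, and limma gave a mean of 0.55 (interval 0.057 to 1.05, adjusted p = 0.568). POLR2A (chr17:7484366-7514616, plus strand, GRCh38) was at 19.1 FPKM with mimic and 21.8 FPKM with scramble in PSN-1, and at 32.9 FPKM with mimic and 50.7 FPKM with scramble in MIA PaCa-2. The mimic library was the lower one in each line, by a log2 change of -0.18 in PSN-1 and -0.61 in MIA PaCa-2. The limma mean was -0.40 (interval -0.79 to 0.0014, adjusted p = 0.594). TBP and POLR2A, which work at the same promoters, thus had opposite signs in both lines. Whether the response of either differs between the lines was not tested.

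ACTB was lower with mimic by a similar size in both lines. It was at 1475 FPKM with mimic and 1789 FPKM with scramble in PSN-1, and at 3486 FPKM with mimic and 4065 FPKM with scramble in MIA PaCa-2. The log2 changes were -0.28 and -0.22, both many times the counting SE of 0.0102 and 0.0069, which is small because ACTB is abundant. These sizes exceeded those of 69.6% of all genes in PSN-1 and 56.4% in MIA PaCa-2. For ACTB limma gave a mean of -0.25 (interval -0.38 to -0.12, adjusted p = 0.363). ACTG1, the gene of the other cytoplasmic actin, differed between the lines in sign, with log2 changes of -0.22 in PSN-1 and 0.053 in MIA PaCa-2.

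The metabolic enzymes differed by under 10% between mimic and scramble in both lines. GAPDH was at 2479 FPKM with mimic and 2476 FPKM with scramble in PSN-1, and at 4624 FPKM with mimic and 4904 FPKM with scramble in MIA PaCa-2. HPRT1 was at 53.1 FPKM with either oligonucleotide in PSN-1, and at 80.9 FPKM with mimic and 86.5 FPKM with scramble in MIA PaCa-2. Within each line, mimic and scramble were nearly level for both genes. The limma means were -0.042 for GAPDH (interval -0.17 to 0.082, adjusted p = 0.856) and -0.048 for HPRT1 (interval -0.33 to 0.23, adjusted p = 0.937). GUSB was at 14.99 FPKM with mimic and 15.5 FPKM with scramble in PSN-1, and at 39.6 FPKM with mimic and 36.2 FPKM with scramble in MIA PaCa-2, with a limma mean of 0.042 (interval -0.30 to 0.38, adjusted p = 0.957). Its pseudogenes GUSBP11, GUSBP1 and GUSBP4 had mean levels of 22.0%, 13.4% and 12.1% of GUSB, so reads may have been split between near-identical copies and the GUSB values are uncertain to that extent.

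PPIA was at 416 FPKM with mimic and 431 FPKM with scramble in PSN-1, and at 527 FPKM with mimic and 583 FPKM with scramble in MIA PaCa-2, with log2 changes of -0.052 and -0.14. YWHAZ was at 314 FPKM with mimic and 291 FPKM with scramble in PSN-1, and at 273 FPKM with mimic and 246 FPKM with scramble in MIA PaCa-2, with log2 changes of 0.11 and 0.15. Each kept its sign in both lines. TFRC was at 87.4 FPKM with mimic and 69.6 FPKM with scramble in PSN-1, and at 80.6 FPKM with mimic and 83.8 FPKM with scramble in MIA PaCa-2, with log2 changes of 0.33 (counting SE 0.028) and -0.056 (counting SE 0.028). In PSN-1, TFRC was therefore the second largest change of the 10 after IPO8. The limma means were -0.098 for PPIA (interval -0.29 to 0.089, adjusted p = 0.764), 0.13 for YWHAZ (interval -0.076 to 0.33, adjusted p = 0.719) and 0.13 for TFRC (interval -0.21 to 0.48, adjusted p = 0.825). GAPDH was the 1 of the 10 whose exons overlap an annotated gene on the opposite strand, AC006064.4, over 422 bases, and the strand setting of the counting is not known. The listed PPIA copies did not pass 1.48 FPKM.

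Between the lines most of the reference genes were lower in PSN-1. In limma, with the oligonucleotide as a covariate and 2 libraries per line, 6 of the 10 were called lower and 1 higher in PSN-1 at an adjusted p under 0.05, beside 56.4% of all 12423 genes called (27.3% lower and 29.2% higher). The lines differ at most genes, and 7 of 10 is near that share. The median log2 fold of the 10 was -0.53, beside 0.015 for all genes. Without the PSN-1 mimic library, or without the PSN-1 scramble library, and with the line alone in the fit, GUSB was the 1 of the 10 still called. Without the MIA PaCa-2 mimic library 6 were called, and without the MIA PaCa-2 scramble library 5, TBP among them. Each such fit leaves 1 line with a lone library that is assumed to vary like the other line's.

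**Figure D3:**
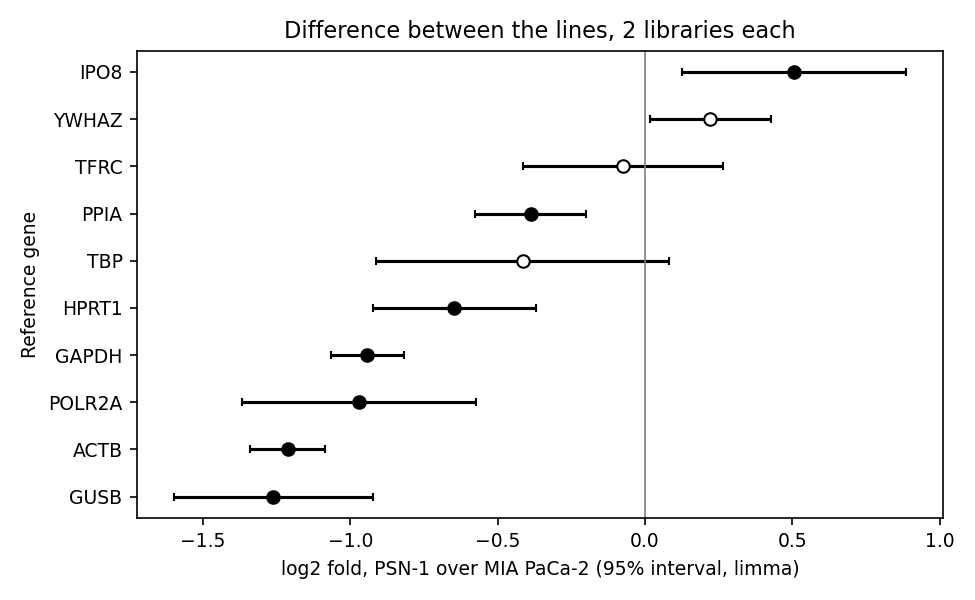
The log2 fold of each reference gene, PSN-1 over MIA PaCa-2, from limma on log2 of FPKM + 1 over 4 libraries; bars are 95% intervals, filled points have an adjusted p under 0.05 and open points do not. IPO8 is the filled point right of 0, TFRC, YWHAZ and TBP are open, and ACTB and GUSB lie beyond -1.

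GUSB and ACTB had the lowest folds of the 10 between PSN-1 and MIA PaCa-2. GUSB averaged 15.2 FPKM in PSN-1 and 37.9 FPKM in MIA PaCa-2 (log2 fold -1.26, SE 0.13, limma adjusted p = 0.00137). ACTB averaged 1632 FPKM in PSN-1 and 3775 FPKM in MIA PaCa-2 (log2 fold -1.21, SE 0.050, limma adjusted p = 0.000121). For both genes the lines did not overlap, and they were the 2 of the 10 past 2-fold on the log2(FPKM + 1) scale, where 29% of all genes were past 2-fold (17.1% higher and 11.9% lower). POLR2A averaged 20.4 FPKM in PSN-1 and 41.8 FPKM in MIA PaCa-2 (log2 fold -0.97, SE 0.16, limma adjusted p = 0.00508), so its plain means are more than 2-fold apart while its log2(FPKM + 1) fold is just short of that. GAPDH averaged 2478 FPKM in PSN-1 and 4764 FPKM in MIA PaCa-2 (log2 fold -0.94, SE 0.048, limma adjusted p = 0.000193). HPRT1 averaged 53.1 FPKM in PSN-1 and 83.7 FPKM in MIA PaCa-2 (log2 fold -0.65, SE 0.11, limma adjusted p = 0.00588), and PPIA 423 FPKM in PSN-1 and 555 FPKM in MIA PaCa-2 (log2 fold -0.39, SE 0.073, limma adjusted p = 0.00864). The PPIA call was lost in limma without the trend. The enzyme genes, the actin gene and the polymerase gene were thus all lower in PSN-1.

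IPO8 was called higher in PSN-1, at a mean of 22.2 FPKM against 15.8 FPKM in MIA PaCa-2 (log2 fold 0.51, SE 0.15, limma adjusted p = 0.0356), although its libraries overlapped: the PSN-1 mimic library was below the MIA PaCa-2 scramble library. It was not called without the filter on low values, with the line alone in the fit, or with any library left out. Its log2 fold was 0.85 without the PSN-1 mimic library, 0.17 without the PSN-1 scramble library, 0.015 without the MIA PaCa-2 mimic library and 0.998 without the MIA PaCa-2 scramble library. TFRC averaged 78.5 FPKM in PSN-1 and 82.2 FPKM in MIA PaCa-2, a log2 fold of -0.074 (interval -0.41 to 0.27, limma adjusted p = 0.656). YWHAZ averaged 303 FPKM in PSN-1 and 260 FPKM in MIA PaCa-2 (log2 fold 0.22, interval 0.018 to 0.43, limma adjusted p = 0.0637), and TBP 11.96 FPKM in PSN-1 and 16.99 FPKM in MIA PaCa-2 (log2 fold -0.41, interval -0.91 to 0.081, limma adjusted p = 0.124). None of those 3 was called, and YWHAZ was called when values were scaled to TPM. Not overlapping between the lines were 7 of the 10, with 1 higher and 6 lower in PSN-1, against 79% of all genes (40% higher and 39% lower).

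The spread over all 4 libraries joins both comparisons. TFRC had the smallest SD of log2 FPKM, 0.14, with its highest library 1.26 times its lowest. YWHAZ followed at 0.15 and 1.28 times, and PPIA at 0.23 and 1.40 times. At the other end GUSB had an SD of 0.76 and ACTB of 0.71, with the highest library 2.64 and 2.76 times the lowest. On the log2(FPKM + 1) scale the median SD of all 12423 genes was 0.38, and 11.3% of genes had a smaller SD than TFRC, 12.6% than YWHAZ, 76.4% than ACTB and 77.1% than GUSB. ACTB and GUSB thus varied more over these 4 libraries than most expressed genes did. Of 4617 genes averaging 20 FPKM or more, the smallest SD was that of RNF13, a ubiquitin ligase gene, at 35.5, 36.0, 36.4 and 35.5 FPKM in PSN-1 with mimic, PSN-1 with scramble, MIA PaCa-2 with mimic and MIA PaCa-2 with scramble. TAOK1, SPNS1, FBL and SLC25A36 came next, and all 5 were picked for their values in these same libraries.

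Ratios between reference genes do not depend on how libraries were scaled, and a pair that moves together keeps its ratio. For each gene the SD over the 4 libraries of its log2 ratio to each other gene was averaged, the measure M of the geNorm method, in which a low value is steadier. HPRT1 had the lowest M, 0.39, followed by PPIA at 0.41 and GAPDH at 0.43, while IPO8 had the highest, 0.90, and TBP and YWHAZ had 0.60 each. Of the 45 pairs, HPRT1 with PPIA had the steadiest ratio (SD 0.16) and IPO8 with GUSB the least steady (SD 1.21). The log2 ratio of IPO8 to GUSB was 0.16 with mimic and 0.83 with scramble in PSN-1, against -1.95 with mimic and -0.77 with scramble in MIA PaCa-2. TFRC and YWHAZ, which had the smallest SDs on their own, ranked 4 and 8 by M. When the least steady gene was removed at each step, ACTB and GUSB were the last pair, with an SD of their log2 ratio of 0.18, although both were more than 2-fold lower in PSN-1. A steady ratio thus shows that 2 genes move together and not that they stay level. GAPDH had a low M with an SD of log2 FPKM of 0.55, while PPIA was low in both, at 0.41 and 0.23.

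**Figure D4:**
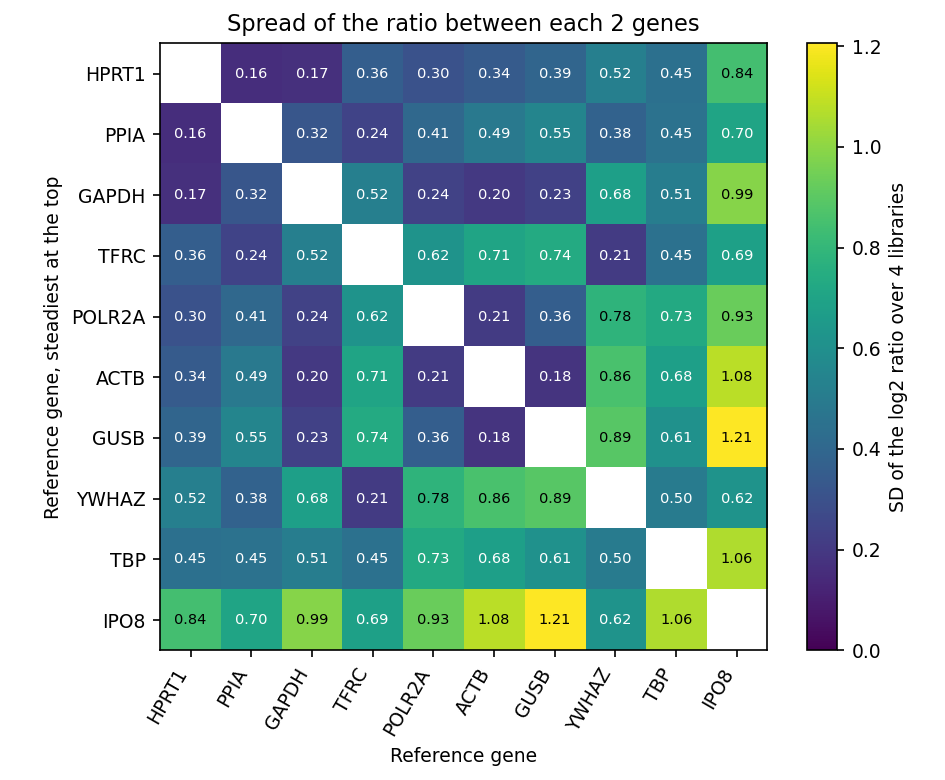
The SD over 4 libraries of the log2 ratio between each 2 reference genes, with genes ordered by M from the steadiest (HPRT1, top) to the least steady (IPO8, bottom); darker cells are steadier ratios. The IPO8 row and column are the brightest, up to 1.21 with GUSB, and HPRT1 with PPIA is the darkest cell at 0.16.

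Each gene was then taken as the only reference, by subtracting its log2 change from that of every gene and counting genes past 2-fold again. Every count therefore follows from that gene's own change and is no separate evidence. The deposited values are the starting point, so a departure from them does not show which scaling is right. As deposited, 199 genes were past 2-fold in PSN-1 (104 higher and 95 lower) and 244 in MIA PaCa-2 (151 higher and 93 lower). Divided by IPO8, 1322 genes were past 2-fold in PSN-1 and 5719 in MIA PaCa-2, of which 5697 were higher. Division by TBP gave 289 in PSN-1 and 3335 in MIA PaCa-2, of which 3298 were lower, and division by POLR2A gave 228 in PSN-1 and 1367 in MIA PaCa-2, of which 1337 were higher. The same MIA PaCa-2 libraries would thus show mostly higher genes with IPO8 or POLR2A as the standard and mostly lower genes with TBP. With ACTB the counts were 268 in PSN-1 and 371 in MIA PaCa-2, and with TFRC 368 and 263. GAPDH (202 and 277), HPRT1 (199 and 281), PPIA (204 and 310), YWHAZ (217 and 245) and GUSB (204 and 233) stayed closest to the deposited total in PSN-1. In MIA PaCa-2 YWHAZ and GUSB were closest, and TFRC was closer than GAPDH, HPRT1 and PPIA. The balance in MIA PaCa-2 turned with YWHAZ, to 91 higher and 154 lower, and with GUSB, to 92 higher and 141 lower. In PSN-1 it turned with YWHAZ, to 82 higher and 135 lower, and further with TBP (65 higher and 224 lower) and TFRC (56 higher and 312 lower). Dividing by the geometric mean of all 10 gave 206 in PSN-1 and 289 in MIA PaCa-2.

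**Figure D5:**
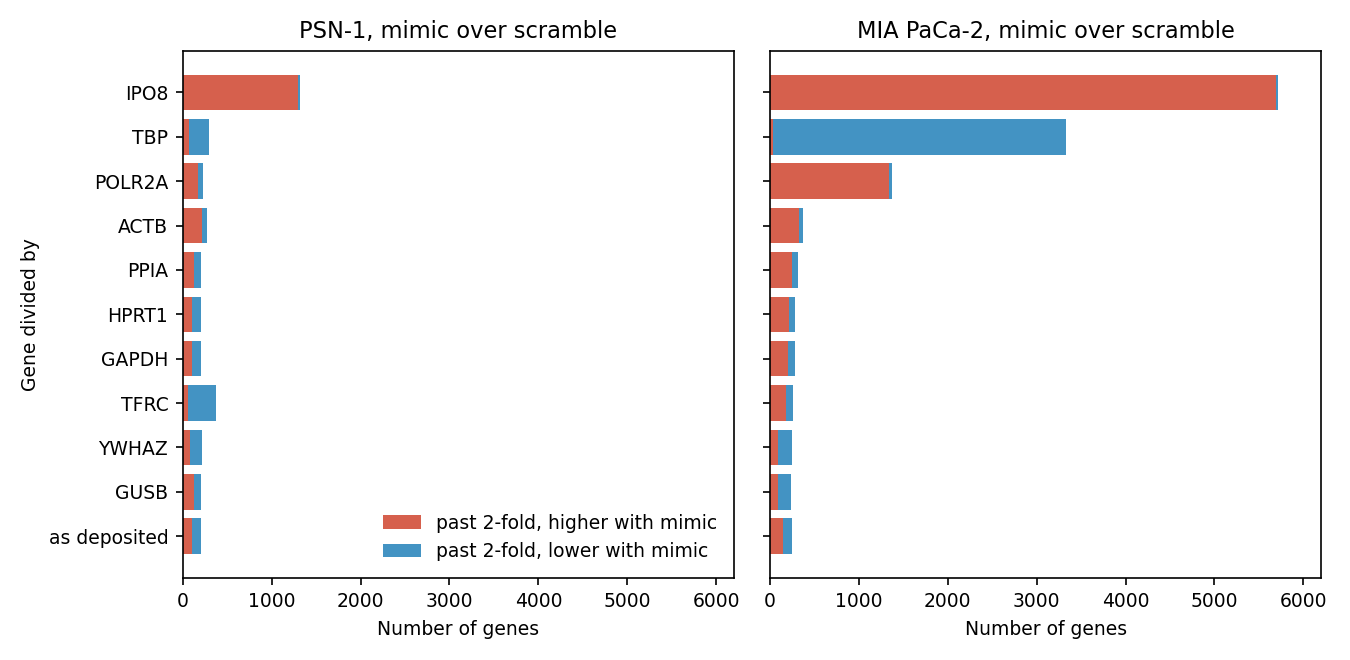
Number of genes past 2-fold, mimic over scramble, when every gene is divided by 1 reference gene, in PSN-1 (left) and MIA PaCa-2 (right); red is higher and blue lower with mimic, and the bottom bar is the deposited values. In MIA PaCa-2 the bars reach 5719 for IPO8, 3335 for TBP and 1367 for POLR2A, against 244 as deposited.

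The same division was made for the comparison of lines. As deposited, 3608 of 12423 genes were past 2-fold between PSN-1 and MIA PaCa-2. Divided by TFRC the count was 3609, by YWHAZ 3891, by PPIA 3977 and by TBP 4034. It was 4699 by IPO8, 4792 by HPRT1, 6355 by GAPDH, 6509 by POLR2A, 7855 by ACTB and 8124 by GUSB. With GUSB as the standard, 7864 genes were higher in PSN-1 and 260 lower. GUSB and GAPDH, among the closest for the mimic comparison in PSN-1, were thus among the further ones for the comparison of lines. POLR2A was far from the deposited count in MIA PaCa-2 and between the lines. With YWHAZ the total count was within 10% of the deposited one in PSN-1, in MIA PaCa-2 and between the lines, and with PPIA it was so in PSN-1 alone. The balance nevertheless turned with YWHAZ in each of these comparisons. Between the lines, the deposited count split into 2127 on the higher side for PSN-1 and 1481 on the lower side. After division by YWHAZ the split was 1757 and 2134. It turned with IPO8 too, to 1419 and 3280.

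A gene with a small change shows the effect on a sign. STK25, a protein kinase gene chosen with its values known, was at 21.5 FPKM with mimic and 25.4 FPKM with scramble in PSN-1, and at 54.4 FPKM with mimic and 58.3 FPKM with scramble in MIA PaCa-2. Relative to the 10 references, and on log2 FPKM with no pseudocount, its change in PSN-1 ran from -0.57 with TFRC to 0.47 with IPO8, and 8 of the 10 gave a value below 0. In MIA PaCa-2 it ran from -1.01 with TBP to 0.95 with IPO8, with 6 of the 10 below 0. The sign for STK25 thus differed between references in both lines. Some values were close to 0, such as -0.0020 with HPRT1 and -0.015 with GAPDH in MIA PaCa-2, and no counting error was computed for STK25. SNRPE, a spliceosomal protein gene also chosen with its values known, was below 0 against all 10 references in both lines, between -2.11 and -1.07 in PSN-1 and between -2.63 and -0.66 in MIA PaCa-2.

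The functional relatives of the reference genes varied within most families. Of all genes, 7.04% in PSN-1 and 9.49% in MIA PaCa-2 passed 1.5-fold with the mimic. Of 11 other RNA polymerase II subunit genes, 7 in PSN-1 and 10 in MIA PaCa-2 were below 0 with the mimic, with medians of -0.051 in both lines, and 0 in PSN-1 and 1 in MIA PaCa-2 passed 1.5-fold. The largest mean change among them was that of POLR2L, a small subunit shared with the other polymerases, at 83.5 FPKM with mimic and 97.2 FPKM with scramble in PSN-1 and 74.6 FPKM with mimic and 116 FPKM with scramble in MIA PaCa-2. Of 26 TBP-associated and general transcription factor genes, 16 in PSN-1 and 12 in MIA PaCa-2 were above 0, with medians of 0.053 and -0.049. Past 1.5-fold, 1 was higher and 0 lower in PSN-1, and 0 higher and 1 lower in MIA PaCa-2. TAF9B, a subunit of the complex that TBP belongs to, had the largest mean change among them. It was at 13.5 FPKM with mimic and 8.54 FPKM with scramble in PSN-1, and at 22.1 FPKM with mimic and 14.8 FPKM with scramble in MIA PaCa-2. The next largest, TAF7, TAF11 and TAF5, were lower with mimic in both lines. Their log2 changes were -0.52, -0.50 and -0.23 in PSN-1 and -0.41, -0.35 and -0.59 in MIA PaCa-2. Of 24 importin and other nuclear transport receptor genes besides IPO8, 0 passed 1.5-fold in either line, with medians of 0.041 in both. IPO8 itself passed it in both lines.

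Limma called 0 genes of these lists for the mimic in both lines, beside 0.0563% of all genes. For the comparison of lines it called 56.4% of all genes, 29.2% higher and 27.3% lower in PSN-1. Between the lines it called 4 of 5 measured 14-3-3 genes lower in PSN-1 and none higher, with a median log2 fold of -1.12, while YWHAZ was at 0.22. YWHAG averaged furthest apart, at 25.2 and 24.6 FPKM in PSN-1 with mimic and with scramble against 140 and 123 FPKM in MIA PaCa-2 (log2 fold -2.35, SE 0.11). Of 15 cyclophilin genes 7 were called higher and 5 lower in PSN-1, and PPIB, a cyclophilin of the endoplasmic reticulum, was at a log2 fold of 1.17 where PPIA was at -0.39. Of 15 glycolytic enzyme genes 6 were called higher and 7 lower (median -0.13), with TPI1 at -1.23 on the side of GAPDH and LDHA at 0.68 on the other. Of 12 iron-handling genes 5 were called higher and 3 lower, among them SLC11A2, an iron transporter (log2 fold 2.42), and STEAP3, a reductase of endosomal iron (2.46), beside a TFRC fold of -0.074. Purine synthesis and salvage genes were called lower in 9 and higher in 3 of 18 (median -0.39), with APRT, the other salvage transferase, at -1.26, and lysosomal hydrolase genes lower in 5 and higher in 6 of 19 (median 0.22). ACTG1 was called lower in PSN-1 (-0.77, SE 0.076), as ACTB was.

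Among 39 other genes in use as references, 1 passed 1.5-fold with the mimic in each line, and it was RAB7A, a GTPase of late endosomes. The shares of all genes were 7.04% in PSN-1 and 9.49% in MIA PaCa-2. RAB7A was at 107 FPKM with mimic and 70.2 FPKM with scramble in PSN-1, and at 190 FPKM with mimic and 106 FPKM with scramble in MIA PaCa-2, with a mean log2 change of 0.72 that limma did not call (adjusted p = 0.280). The medians of the 39 were -0.015 in PSN-1 and 0.076 in MIA PaCa-2. Between the lines, limma called 15 of the 39 higher and 11 lower in PSN-1, beside 29.2% higher and 27.3% lower of all genes. B2M, the light chain of class I HLA molecules, was at a log2 fold of 1.89 (SE 0.10), so it differed between the lines by more than any of the 10.

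The 2 reference genes with the largest SD were compared with all 9316 genes of at least 5 FPKM for likeness over the 4 libraries, as the distance between centred log2(FPKM + 1) values. SNX3, a sorting nexin gene, was closest to GUSB (distance 0.023), followed by KIAA1919 and SSU72. MSL2 was closest to ACTB (distance 0.026), followed by ARHGEF19 and LMNB2, which encodes lamin B2. All of these were found among many genes over 4 libraries.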

How the data were processed

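Each library has a deposited table of FPKM by gene symbol, per the file headers. Libraries were made from total RNA with a stranded mRNA kit, per the labels' protocols. TopHat2 2.1.1, Cuffdiff 2.2.1 and hg19 are listed in the submitters' processing notes, without roles. For annotation, strand setting and scaling, the sources used here give nothing. By definition this unit divides by length and library total, so abundant genes can move others. Median-ratio factors of the deposited values were all 1.00, so such scaling leaves them, and the all-gene medians near 0, almost unchanged. Whether it was applied before deposit is not known.

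FPKM is no count, so log2(FPKM + 1) was tested with limma 3.58.1 in R 4.3.3 (trend, oligonucleotide and line as terms, two-sided, Benjamini-Hochberg over 12423 genes averaging 1 FPKM or more), tested first on simulated data. Libraries pair by cell line, from the labels. Libraries of a line differ in oligonucleotide, so p-values rest on the spread between these 4 libraries, combined with the variance trend over all genes. Depth was estimated from genes with 1 annotated transcript under 0.1 FPKM, assuming 200-base fragments. Transcripts were from GENCODE 29 (GRCh38). Relatives named in the text come from the up to 4 of each list with the largest mean change or line difference at 5 FPKM or more. The members and lists were chosen with earlier results of these data known. Alternatives were pseudocount, filter, scaling, trend, model terms and leaving out libraries. Figures used matplotlib 3.10.9.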

Additional observations from a re-analysis of the deposited data

Results flagged for a closer look

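For 4 of the 10 reference genes the mimic change had opposite signs in the 2 lines, with 1 pair of libraries per line, and the difference was not tested. The log2 change in PSN-1 minus that in MIA PaCa-2 was 0.38 for TFRC, -0.17 for GUSB, 0.097 for HPRT1 and 0.087 for GAPDH. For GAPDH and HPRT1 the PSN-1 change was 0.0018 and 0.00014, and both were below 0 with TPM scaling. That leaves TFRC and GUSB with opposite signs. The GUSB changes were -0.043 (counting SE 0.096) in PSN-1 and 0.13 (counting SE 0.063) in MIA PaCa-2. The sign of GUSB in PSN-1 is thus within its counting error.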

How the results depend on the processing

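The counts of reference genes past 1.5-fold in each line were the same with a pseudocount of 0.1 and with TPM scaling, and IPO8, TBP and POLR2A kept the sign of their changes under both. The filter runs could not alter these counts, because each of the 10 was above 5 FPKM in every library. Median-ratio scaling left the values almost unchanged, so its equal counts are no further check. With TPM scaling the PSN-1 changes of GAPDH and HPRT1 were -0.0019 and -0.0036, below 0 as in MIA PaCa-2, and the PPIA change in MIA PaCa-2 was -0.19. The count of all genes past 1.5-fold in PSN-1 was 1330 with a pseudocount of 0.1, 1322 with TPM scaling and 537 with a filter of 5 FPKM, against 861, and the cause was not tested beyond the smaller number of genes under that filter. Between the lines, leaving out each library in turn with the line alone in the fit called 1 to 6 of the 10 and 2343 to 4993 genes, against 6 and 6569 with the line alone over all 4 libraries and 7 and 7012 with the oligonucleotide as a term. For the mimic in both lines limma called 0 genes without the filter (1116 at an unadjusted p under 0.05) and 0 without the line as a block (44), against 7; the cause was not tested. Leaving out each library moved the mean M between 0.48 and 0.57, with IPO8 the highest and HPRT1 the lowest each time. Of 40 counts of genes after dividing by a reference, 26 moved by over 1.5 times with another pseudocount or filter. The labels carry no replicate numbers, so the cell line was the one block that could pair the libraries. With 1 library a group, variation between cultures was not measured.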
